A study of Mus musculus with 2 samples.

Results

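Genes for the extracellular matrix and the basement membrane were compared between the small intestine of mice that carry an interleukin 9 transgene (IL-9Tg) and of wild-type (WT) mice. The 45 genes were listed by the function of their products. Of these, 44 had a probe set (a group of short probes for a single transcript) with that gene as its only symbol, out of 18194 genes named on the array, and Fbn1 was not analysed here. Where a gene had several probe sets, the brightest on average stood for it, and the others served as a check. The transgenic group was a single pool of 3 animals with the IL-9 transgene and the wild-type group a single pool of 3 WT animals, all on the BALB/c background, 6 to 8 weeks old and untreated. Total RNA from the small intestine was hybridised to Affymetrix MOE430 2 arrays, 1 array for each pool. Neither the promoter of the transgene nor the cells that express it are given in the sources used here.

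With 1 array a group there is no replicate check, no p-value and no estimate of the spread between mice, and all directions rest on the labels. Values are intensities on a linear scale, and differences are log2(intensity + 1) in the transgenic pool minus that in the wild-type pool. Where a pair of values is given, the transgenic pool comes first. A gene passed the expression filter where the higher of its pair of values reached the median of all values, an intensity of 78.5, which 11862 genes did. The only repeated measurement is of genes with more than 1 probe set, whose differences had an SD of 0.23 within a gene over 4965 genes. This is a spread between probes of the same arrays, not between animals. Il9 read 62.2 (transgenic) and 71.6 (wild type), both below the filter, so its probe set does not check the labels. The 3′ to 5′ signal ratio, a measure of RNA integrity, was 1.33 and 1.61 for Actb and 1.08 and 1.22 for Gapdh in the transgenic and wild-type pools. The 11 markers of intestinal epithelium all passed the filter, and their summed intensity was 105231 and 109725. Of these, 4 lay above 0 and 7 below, with a median of -0.11.

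The extracellular matrix is the protein network outside cells. In the intestine, fibrillar collagens give the submucosa and lamina propria their tensile strength, elastic fibres let the wall recoil, and proteoglycans space the collagen fibrils. The basement membrane is a thin sheet of type IV collagen, laminins, nidogens and perlecan on which the epithelium, the vessels and the muscle cells rest. Glycoproteins such as fibronectin link these networks to integrins on cells. Most of these proteins are made by fibroblasts and smooth muscle cells, with contributions from endothelium and epithelium. In whole tissue, fewer cells of a type and less RNA per cell cannot be told apart.

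Among the matrix genes, fibronectin had the largest difference and a chain of type VI collagen followed. Most of the basement membrane, like most genes past the filter, read nearly alike in both pools. Of the 44 genes, 40 passed the filter, and Fbln2 and Mfap5 passed in 1 pool only. Fn1 was 2-fold higher in the transgenic pool, 1 of 40 genes, while 0.607% of all genes past the filter were 2-fold higher. No matrix gene was 2-fold lower (0 of 40), against 0.202% of all genes. The remaining 39 differed by less than 2-fold. At 1.5-fold, Fn1 and Col6a1 were higher (2 of 40, against 1.68% of all genes) and 0 of 40 were lower (against 1.45%). The median difference of the 40 genes was 0.09 (0.07 over all 44 with no filter), against 0.01 over all genes past the filter. A total of 27 lay above 0, 12 below 0 and 1 at exactly 0, while 51.4% of all genes lay above 0.

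The middle 95% of all genes past the filter lay between -0.49 and 0.50. Fn1, Col6a1, Col5a2 and Lama2 lay above that range, 4 of 40 genes against 2.5% of all genes by construction, and 0 lay below it. Differences at least as large as the SD between probe sets were found in 12 genes upward, against 14.8% of all genes, and in 3 downward, against 13.8%. The 12 were Fn1, Col6a1, Col6a2, Col6a3, Col5a1, Col5a2, Col3a1, Col18a1, Lama2, Tnc, Ecm1 and Ogn, and the 3 were Pcolce, Mgp and Lum. The other 25 differed by less than 0.23, as did 8468 of the 11862 genes past the filter. Of the genes named, Ogn and Pcolce had another probe set past the filter with the opposite sign, at -0.12 and 0.04. For single genes, position among the 11862 is given below as a percentile, as a description only.

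**Figure D1:**
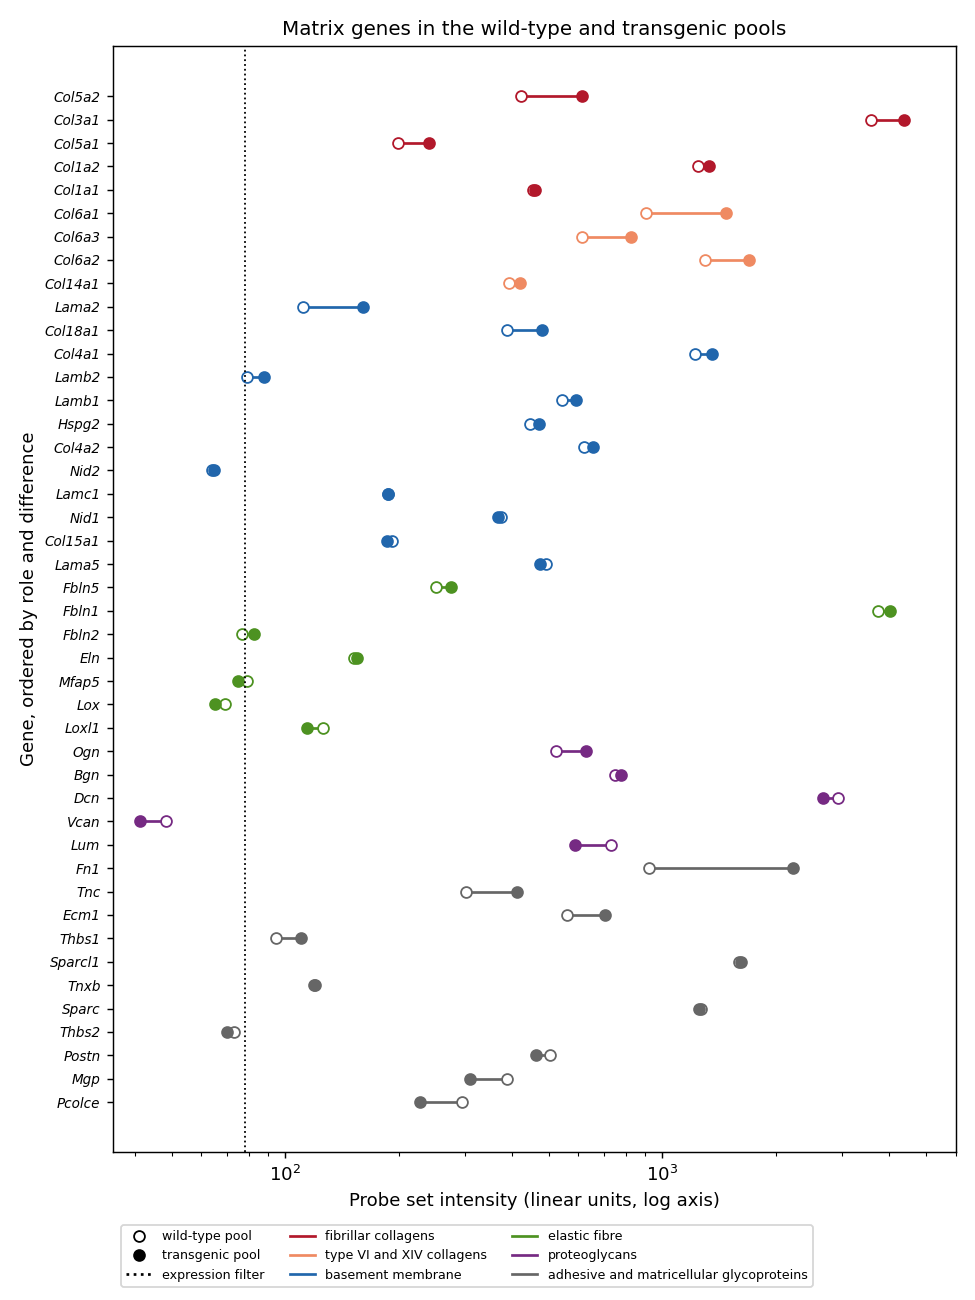
Intensity of the probe set used for each of the 44 matrix genes (log axis, linear intensity units) in the wild-type pool (open circles) and the transgenic pool (filled circles), 1 array each, coloured by role, with the expression filter at 78.5 as a dotted line. Fn1 has the widest gap, 925 to 2222, while circles of genes such as Sparcl1 and Tnxb nearly coincide; levels of different genes are not comparable because each probe set has its own response.

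**Figure D2:**
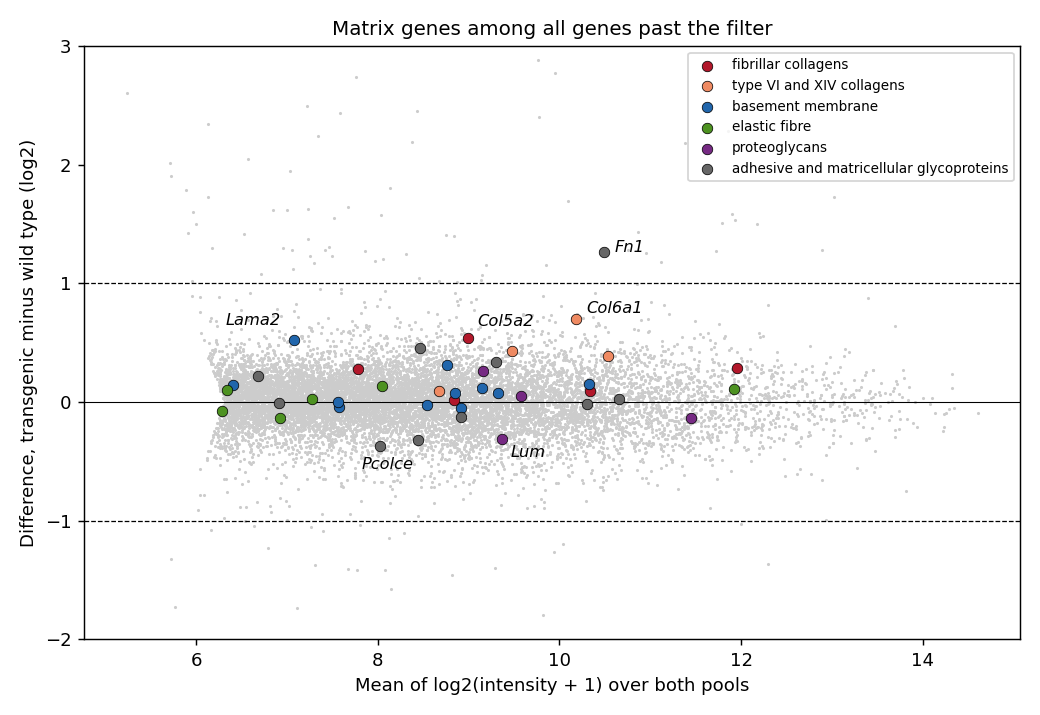
Difference between the pools (log2, transgenic minus wild type) against the mean log2(intensity + 1) of both pools for the 11862 genes past the filter (grey), with the 40 matrix genes in colour by role and dashed lines at 2-fold; 4 genes above 3 are outside the plotted range. Fn1 is the only matrix gene beyond a dashed line, at 1.26.

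Fibrillar collagens are long triple helices that pack into banded fibrils, and all 5 lay above 0, with a median of 0.27. The chains of type I collagen, the main collagen of most connective tissue, read nearly alike in both pools. Col1a1 read 459.7 (transgenic) against 454 (wild type), a difference of 0.02, and its other probe set past the filter lay at -0.24. Col1a2 read 1329 and 1247, a difference of 0.09, with the other probe set at 0.04. No direction is given for Col1a1, whose probe sets differ in sign.

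Type III collagen, a thinner fibril of distensible organs, and type V collagen, which starts fibrils and limits their width, were higher in the transgenic pool by more than the SD between probe sets. Col3a1 read 4375 against 3590.1, a difference of 0.29 (1.22-fold), and its other probe set gave 0.26. Col5a1 read 241 against 199, a difference of 0.27, with 0.25 in the other probe set past the filter. Col5a2 read 614 against 422, a difference of 0.54 (1.45-fold), with 0.44 in its other probe set. Col5a2 was the highest of the fibrillar chains, at percentile 97.9 of all genes past the filter. Each of these 3 genes thus had both of its probe sets past the filter above 0. The second probe set of Col5a2 (79.7 against 58.6) passed in the transgenic pool only, which fixes its sign above 0. Col3a1 and Col5a2 are neighbours in the RefSeq gene order of mouse assembly GRCm38.p6.

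Type VI collagen forms beaded microfilaments between the basement membrane and the fibrils, and its 3 chains assemble in equal amounts. All 3 were higher in the transgenic pool, with a median of 0.43. Col6a1 read 1474 (transgenic) against 909 (wild type), a difference of 0.70 (1.62-fold), from its only probe set, at percentile 98.9. Col6a3 read 829 against 614, a difference of 0.43 (1.35-fold), also from a single probe set. Col6a2 read 1698 against 1299, a difference of 0.39 (1.31-fold), and its other probe set read 1245 against 915, a difference of 0.44. The lowest of the 3 chains lay at percentile 94.8, and the range from lowest to highest chain was 0.31. Col14a1, a collagen that coats fibrils, read 419 against 394, a difference of 0.09, with 0.16 in its other probe set past the filter.

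Markers of adipocytes, a cell type in which type VI collagen is abundant, were read beside these chains. Of 9 such markers 7 were named on the array and 6 passed the filter, with 5 above 0 and a median of 0.23. Of the 6 markers, 3 were closer to 0 than the SD between probe sets. Only Lipe lay below 0, at 546 against 601 (-0.14). The summed intensity of the adipocyte markers was 2214 against 1899. Adipoq, the hormone adiponectin, read 91.9 against 14.3 and passed the filter in the transgenic pool only. Fabp4, a fatty acid carrier, read 622 against 457, a difference of 0.44, with 0.07 in its other probe set past the filter. Lep, leptin, read 14.9 and 14.5, below the filter. The part of adipocytes in the type VI collagen values was not tested.

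RefSeq promoter windows on GRCm38.p6 were found for 30 of the 45 genes, with 36 start sites. The 250 bases before the start are shown for Col6a1 and Col6a2, neighbouring genes on the same strand that encode chains of a single assembly and were both higher, and for Col3a1 as a fibrillar collagen. Capitals mark a match to a searched motif on either strand (GGGCGG, the core of the SP1 site; TATAAA, the TATA box; CCAAT; TGACGTCA, the cyclic AMP element; TTCNNNGAA, the element of STAT factors, which act downstream of the IL-9 receptor); no printed match overlaps another.
Col6a1, chr10:76726045-76726294, minus strand: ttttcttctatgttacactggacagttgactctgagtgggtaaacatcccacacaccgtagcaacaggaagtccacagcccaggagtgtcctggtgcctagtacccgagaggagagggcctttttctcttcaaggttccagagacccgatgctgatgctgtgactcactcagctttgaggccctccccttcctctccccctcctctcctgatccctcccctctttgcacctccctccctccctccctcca
Col6a2, chr10:76623631-76623880, minus strand: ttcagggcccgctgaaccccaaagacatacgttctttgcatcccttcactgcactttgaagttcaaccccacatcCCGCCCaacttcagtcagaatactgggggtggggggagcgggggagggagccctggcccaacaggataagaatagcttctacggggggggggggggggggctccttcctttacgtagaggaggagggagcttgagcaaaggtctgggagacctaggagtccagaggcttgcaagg
Col3a1, chr1:45311288-45311537, plus strand: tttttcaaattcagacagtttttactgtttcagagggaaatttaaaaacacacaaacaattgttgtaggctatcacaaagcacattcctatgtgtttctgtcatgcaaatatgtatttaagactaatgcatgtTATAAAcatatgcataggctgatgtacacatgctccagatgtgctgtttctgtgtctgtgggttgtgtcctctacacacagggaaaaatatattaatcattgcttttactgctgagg
The Col6a1 window holds none of the 5 motifs, Col6a2 holds 1 GGGCGG (read as its reverse complement) and Col3a1 holds 1 TATAAA. The G and C content was 56.0% for Col6a1, 59.2% for Col6a2 and 35.2% for Col3a1. GGGCGG was found in 20 of the 36 windows of matrix genes and in 32.7% of all 32851 windows, and TATAAA in 7 of 36 and in 12.4%. CCAAT was found in 9 of 36 and in 33.8%, TGACGTCA in 0 of 36 and in 1.55%. TTCNNNGAA was found in 1 of 36, the window of Lamb2, and in 7.02% of all windows. These matches describe letters in a short window and are no evidence of binding.

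Basement membrane genes had a median of 0.07 over 11 of 12 genes past the filter, with 7 above 0, 3 below and 1 at exactly 0. Of these 11, 9 were closer to 0 than the SD between probe sets, as were 8468 of the 11862 genes past the filter. None passed 1.5-fold (0 of 11), against 1.68% of all genes higher and 1.45% lower. The type IV collagen chains, which form the network of the sheet, read 1352 against 1220.4 for Col4a1, a difference of 0.15, and 654 against 622 for Col4a2, a difference of 0.07. The other probe set of Col4a1 gave 0.20. These genes are neighbours in the genome, as are Col6a1 and Col6a2.

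Laminins are cross-shaped trimers that bind integrins and dystroglycan. The chains of the epithelial form with an alpha 5 chain read nearly alike in both pools. Lama5 read 475 against 492, a difference of -0.05, with the other probe set past the filter at 0.26, so no direction is given for it. Lamb1 read 590.3 against 543, a difference of 0.12, and its 3 probe sets past the filter ran from 0.02 to 0.20. Lamc1 read 188 in both pools, a difference of exactly 0, as in 124 of the 11862 genes. Lamb2, a beta chain of muscle and vessel basement membranes, read 87.7 against 79.5, a difference of 0.14.

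Lama2, the alpha chain of muscle and nerve laminin, was the highest of the basement membrane genes. It read 161 against 112, a difference of 0.53 (1.44-fold), from its only probe set, at percentile 97.8. Its partners Lamb1 and Lamc1 thus differed by 0.12 and 0. The 11 smooth muscle markers, from cells that make this laminin, had a median of 0.04 and a summed intensity of 25621 against 25273. Of these, 6 lay above 0 and 5 below. The largest differences were in Des (0.34) and Actg2 (0.29), and the lowest was in Mylk (-0.21).

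Nidogens join laminin to type IV collagen. Nid1 read 368 against 374, a difference of -0.02, with 0.19 in its other probe set past the filter, and Nid2 read 65.0 and 63.9, below the filter. Hspg2, the proteoglycan perlecan, read 471 against 447, a difference of 0.07, with the other probe set at -0.22. Of the basement membrane collagens that carry sugar chains, Col18a1, the source of endostatin, read 481 against 388, a difference of 0.31 (1.24-fold), with 0.30 in the other probe set. Col15a1, its relative, read 186 against 192, a difference of -0.04. Col18a1 and Lama2 were therefore the 2 basement membrane genes beyond the SD between probe sets, while probe sets of Nid1, Hspg2 and Lama5 differed in sign.

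The fibrillar collagen median exceeded the basement membrane median by 0.20 (0.27 against 0.07). It exceeded the median of the 35 other matrix genes past the filter, 0.07, by the same amount. That is not a separate comparison, because the 35 include the basement membrane genes and Hspg2 is the median gene of both sets. The other probe set of Hspg2 lay at -0.22. The fibrillar and basement membrane values overlapped: Col1a1 and Col1a2 lay among the basement membrane genes, and Lama2 and Col18a1 lay above the fibrillar median. With 1 array a group this contrast has no test, and genes of a group are not replicates.

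**Figure D3:**
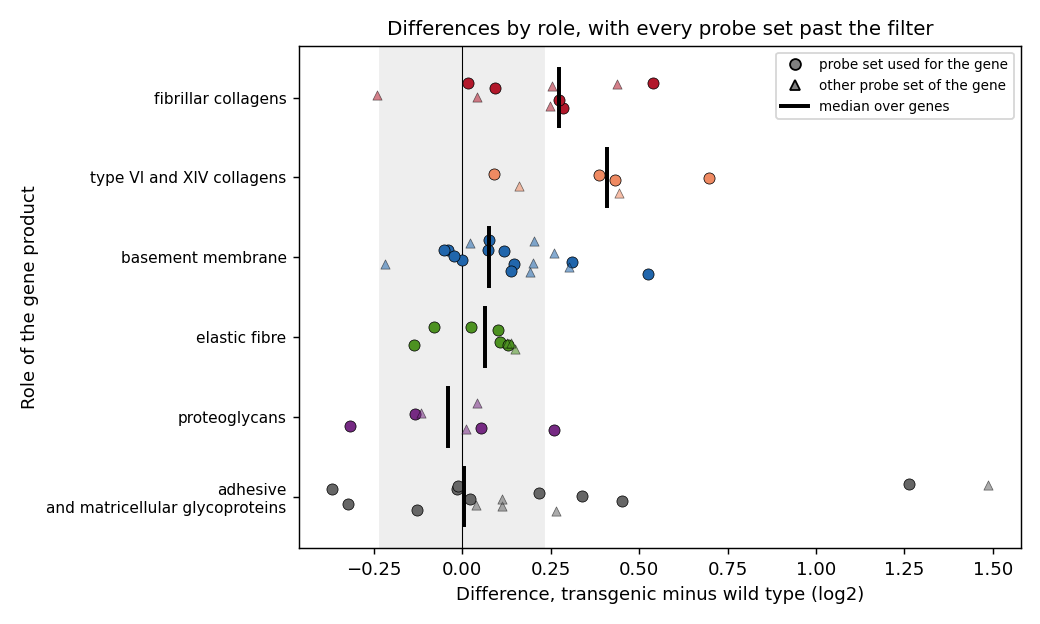
Difference between the pools (log2, transgenic minus wild type) for each probe set of the matrix genes past the filter, by role; circles are the probe sets used, triangles the other probe sets of the same genes, black bars the medians over genes, and the grey band marks ±0.23, the SD between probe sets of a gene. The type VI and XIV collagens have the rightmost bar, at 0.41, the fibrillar collagens follow at 0.27, and the other bars lie between -0.04 and 0.07.

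Elastic fibre genes read nearly alike in both pools. Of 8 genes, 7 were named on the array and 6 passed the filter, with a median of 0.06 and a range from -0.13 to 0.13. All 6 were closer to 0 than the SD between probe sets, as were 8468 of the 11862 genes past the filter. Eln, elastin, the rubber-like core of the fibre, read 155 against 153, a difference of 0.02. Fbln5, a fibulin needed for elastic fibre assembly, read 276 against 252, a difference of 0.13, the highest of the group. Fbln1, a fibulin of fibres and basement membranes, read 4014 against 3730.1, a difference of 0.11, and its 3 probe sets lay between 0.11 and 0.14. Fbln2, a related fibulin, read 82.6 against 76.9. Mfap5, a microfibril glycoprotein, read 74.9 against 79.3, a difference of -0.08. Among the probe sets used, Loxl1, an enzyme that crosslinks elastin and collagen, was the lowest past the filter, at 114 against 126 (-0.13). Lox, a related enzyme below the filter, read 65.2 against 69.4. The other probe sets, all below the filter, gave 0.27 for Loxl1 and 0.24 and 0.37 for Lox. The sign of both genes changed in the mean over probe sets, so no direction is given.

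Proteoglycans had a median of -0.04 over 4 of 5 genes past the filter, with 2 above and 2 below 0. Dcn, decorin, which binds collagen fibrils and spaces them, read 2674 against 2931, a difference of -0.13. Lum, lumican, a related regulator of fibril width, read 589 against 733, a difference of -0.32 (1.25-fold lower), from its only probe set. Dcn and Lum, neighbours in the genome, were both below 0, and Lum lay at percentile 8.13 of all genes past the filter. Bgn, biglycan, read 779 against 750.1, a difference of 0.05, and its 3 probe sets lay between 0.01 and 0.05. Ogn, osteoglycin, read 627 against 523, a difference of 0.26, but its other probe set read 455 against 494, a difference of -0.12, so no direction is given. Vcan, versican, a large proteoglycan of loose matrix, read 41.2 against 48.3, below the filter in all 8 of its probe sets.

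Fn1 encodes fibronectin, the dimer that cells assemble into fibrils through integrins and on which other matrix proteins are laid down. It read 2222 (transgenic) against 925 (wild type), 2.40-fold higher, a difference of 1.26. Its second probe set read 198 against 70.2, 2.80-fold higher, a difference of 1.49. Both probe sets thus passed 2-fold, and they are the only 2 of the 65 matrix gene probe sets past the filter to do so. The second of them passed the filter in the transgenic pool only, which fixes its sign but not its size. Fn1 was at place 54 from the top of the 11862 genes. No other glycoprotein of the group came near it: the other 9 past the filter ran from -0.37 to 0.45, and the median of all 10 was 0.01.

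Receptors that bind fibronectin were read from a list of 27 integrins and other matrix receptors, of which 23 passed the filter. None of the 23 passed 1.5-fold (0 higher, 0 lower), against 1.68% of all genes higher and 1.45% lower. Of the 23, 9 lay above 0 and 14 below, and the median was -0.05. Itgb1, the beta 1 integrin chain shared by most matrix receptors, was the highest, at 1249 against 846, a difference of 0.56 (1.48-fold), and its 3 probe sets past the filter ran from 0.33 to 0.56. Ddr1, a collagen receptor kinase, was the lowest, at -0.50, but its probe sets reached 0.25. Of the other chains on the list known to bind fibronectin, picked after their values were seen, Itga5, the alpha 5 partner of the classical receptor, read 140 against 105 (0.40), with its next probe set below the filter at -0.08. Itga4 differed by 0.11, Itga8 by -0.06, Itgb3 by -0.14, Itgb6 by -0.06 and Itgav by -0.15. The second probe sets of Itgb6 and Itgav past the filter lay at 0.33 and 0.24.

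Fibronectin is also a plasma protein made by hepatocytes, and liver markers were read beside it. Apoh, a plasma apolipoprotein, read 233 against 98.6, and Cyp2e1, a cytochrome P450 that passed the filter in the transgenic pool only, read 106 against 37.0. Only 4 of the 9 liver markers passed the filter, 2 above 0 and 2 below. Those below were Ttr (-0.06) and Serpina1c (-0.24, past the filter in the wild-type pool only). The summed intensity of all 9 was 759 against 556. The list median was 0.59 with the filter used here, 0.07 over all 9 with no filter and -0.06 with the filter on the mean of both pools. Below the filter in both pools were Alb, albumin, at 75.3 and 63.6, Ahsg, fetuin A, at 59.3 and 49.1, and the fibrinogen genes Fga, Fgb and Fgg at 12.4 and 11.7, 16.4 and 18.2, and 20.9 and 21.5. The part of liver RNA in the Fn1 values was not tested. The 8 markers of macrophages, another source of fibronectin, had a median of 0.10 over the 7 past the filter, with 5 above 0 and 2 below. They summed to 4606 against 4597. The largest differences were in C1qb (-0.37, though its probe sets past the filter reached 0.11) and Cd68 (0.23).

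Tnc, tenascin C, a glycoprotein of remodelling tissue and of the stroma around crypts, read 413 against 301, a difference of 0.45 (1.37-fold), and its second probe set was below the filter, at 0.07. Ecm1, a glycoprotein that binds perlecan and fibulin, read 707 against 558, a difference of 0.34 (1.26-fold), from its only probe set. Thbs1, a thrombospondin that can activate latent TGF-beta, read 110 against 94.5, a difference of 0.22. Its other probe set, past the filter in the transgenic pool only, gave 0.26. These 3 lay between percentiles 83.6 and 96.6 of all genes past the filter. Thbs2, a related protein, was below the filter at 70.2 against 73.2.

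Other glycoproteins read nearly alike or lower. Sparc, a collagen-binding protein, read 1253 against 1266, a difference of -0.01, with 0.11 in its other 2 probe sets. Its relative Sparcl1 read 1623 against 1598, a difference of 0.02, and Tnxb, tenascin X, which stabilises collagen fibrils, read 119 against 120.2, a difference of -0.01. Postn, periostin, a collagen-binding protein known from type 2 inflammation, read 462 against 504, a difference of -0.13. Mgp, matrix Gla protein, an inhibitor of calcification, read 309.8 against 387, a difference of -0.32 (1.25-fold lower), from its only probe set. Pcolce, the enhancer of procollagen C-proteinase, had the lowest value of the 40 genes, at 228 against 294, a difference of -0.37, but its other probe set read 165 against 161, a difference of 0.04, so no direction is given.

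Mesothelial markers, of the cells that cover the outer gut wall, were read beside these lower genes. All 6 were named on the array, the 3 past the filter lay below 0 with a median of -0.53, and the summed intensity was 638 against 823. The median was -0.35 over all 6 with no filter, -0.33 over the 2 genes that passed on the mean of both pools, and -0.13 where a stricter filter left 1 gene. The 2 with the largest differences were Gpm6a, past the filter in the wild-type pool only, at 55.5 against 110.1, and Upk3b at 151 against 219. Their part in the values of Lum, Mgp and Dcn was not tested.

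The cells that make most of these proteins were read from their own markers. Of 12 fibroblast markers, 10 passed the filter, with 3 above 0 and 7 below, a median of -0.06 and a summed intensity of 9014 against 7927. The largest differences were in Adamdec1, a protease of lamina propria fibroblasts and macrophages, at 5097 against 4084 (0.32), and in Pi16, a marker of adventitial fibroblasts that passed in the wild-type pool only, at 63.8 against 79.8 (-0.32). Adamdec1 thus makes up most of the gap between the sums. Pericyte markers had a median of -0.01, with 2 above 0 and 3 below, and summed to 5452 against 5295. Blood and lymphatic endothelial markers had a median of -0.11, with 4 above 0 and 5 below, and summed to 1480.3 against 1601. The largest differences in the former list were in Pdgfrb (393 against 561, with its other probe set at 0.11) and Abcc9 (303 against 367). In the latter list they were in Tek (122 against 175) and Kdr (267 against 338). The highest differences were 0.14 for the pericyte marker Rgs5 and 0.30 for the endothelial marker Pecam1.

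Mast cell markers were the list with the largest difference. Of 9 markers, 6 passed the filter, 4 of these were 2-fold higher, against 0.607% of all genes, and the sum was 5712 against 1127. These 4 were Mcpt1 (2586 against 378), Mcpt2 (2364 against 319), Fcer1a (109 against 31.0) and Cpa3 (194 against 78.3), and Kit followed at 222 against 136. Fcer1a and Cpa3 passed the filter in the transgenic pool only, and the median of the list was 1.54, or 0.82 over all 9 with no filter. Enteric glia and neuron markers had a median of -0.35 over 5 genes, or -0.07 over 7 with no filter, and summed to 1296 against 2240, most of it in Vip, at 693 against 1587, with Snap25 at 79.6 against 114. Pancreatic markers summed to 855 against 857, with Cela3b at 0.07 and Prss2 at -0.08. Within the epithelium, Cdx2 (984 against 1270, with its other probe set at 0.32) and Cdh1 (3710 against 4343) had the largest differences. The part of mast cells and of nerve cells in the matrix values was not tested.

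Lists of further matrix genes had no member 2-fold higher or lower on the log2(intensity + 1) scale, with Lamb3 just short of it. Over all genes past the filter, 0.607% were 2-fold higher and 0.202% lower. Genes for collagen synthesis and crosslinking had a median of -0.07 over 14 of 22 past the filter, with 6 above 0 and 8 below. Their extremes were Ppib, a prolyl isomerase of collagen folding, at 3932 against 3268 (0.27), and Plod2, a lysyl hydroxylase past the filter in the wild-type pool only, at 73.8 against 98.7 (-0.41). Collagens outside the 45 genes had a median of -0.04 over 11 of 20, with Col8a1 (99.4 against 74.0) and Col13a1 (90.0 against 77.7) the largest, both past the filter in the transgenic pool only. Elastic fibre and matricellular genes outside the 45 had a median of 0.16 over 14 of 30, with 9 above 0. They were led by Emilin1, an elastic fibre glycoprotein (290.2 against 218, 0.41), whose other probe set past the filter gave 0.06. Matn2, matrilin 2, followed at 80.3 against 64.1 (0.32), past the filter in the transgenic pool only.

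In the list of other basement membrane genes the median was 0.07 over 11 of 18. Of these 11, 2 were 1.5-fold lower, against 1.45% of all genes. Lamb3, a beta chain of the epithelial anchoring laminin, read 89.4 against 179, a difference of -0.995 (1.99-fold lower), from its only probe set, and it misses 2-fold only through the pseudocount of 1. Ntn4, a netrin that binds laminin, read 228 against 362, a difference of -0.66, but its other probe set read 128 in both pools. In the TGF-beta list, a pathway known to raise transcription of collagen and fibronectin genes, the median was -0.08 over 18 of 21, with 6 above 0 and 12 below. Its extremes were Tgif1, a repressor in that pathway, at 181 against 123 (0.56), and Skil, a feedback inhibitor, at 1692 against 2279 (-0.43). No TGF-beta list gene passed 1.5-fold in either direction (0 of 18), against 1.68% of all genes higher and 1.45% lower.

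**Figure D4:**
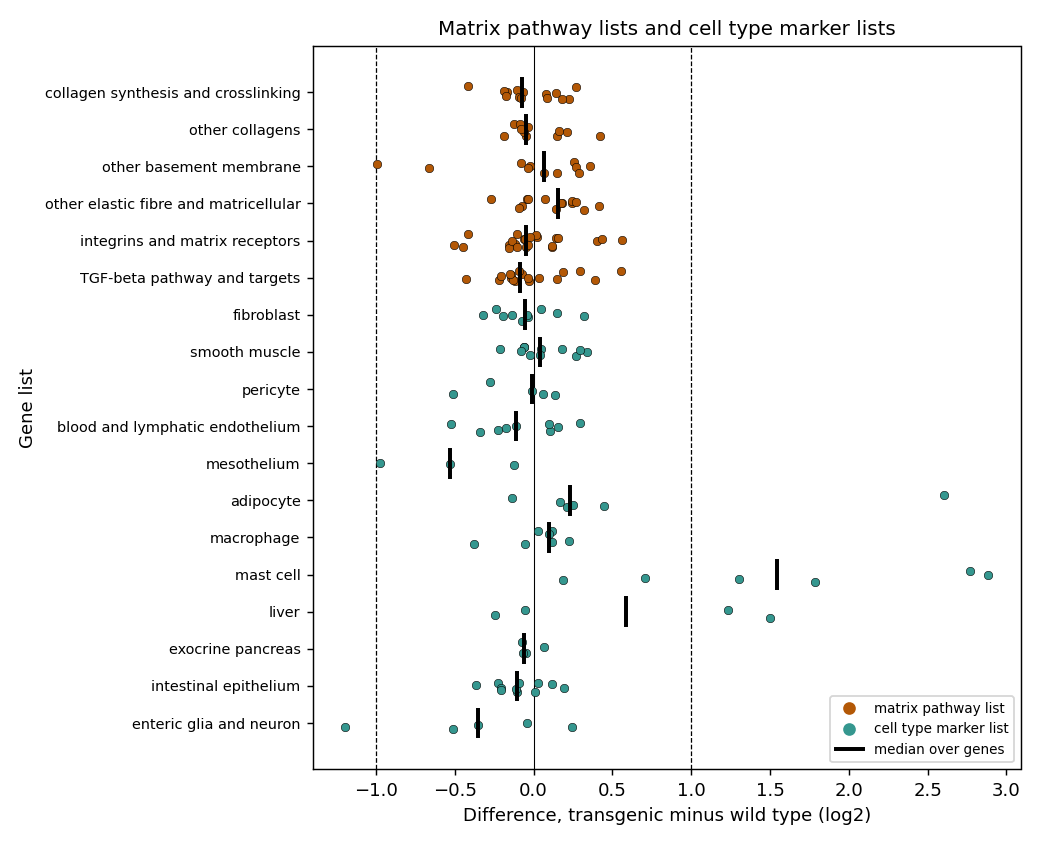
Difference between the pools (log2, transgenic minus wild type) for genes past the filter on 6 lists of further matrix pathway genes (brown) and 12 cell type marker lists (green), each point a gene, with black bars at the list medians and dashed lines at 2-fold. The matrix pathway lists have bars between -0.08 and 0.16, while the mast cell bar lies at 1.54.

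Probe sets of a gene are read on the same 2 arrays, so their signs are a description and no separate support. In 21 matrix genes more than 1 probe set passed the filter, and the SD within these genes was 0.12, against 0.23 over all 4965 such genes. In 14 of the 21 every probe set past the filter lay above 0, in 0 every probe set lay below 0, and in 7 the signs differed (Col1a1, Hspg2, Lama5, Nid1, Ogn, Pcolce and Sparc). Over the 4965 genes the shares were 24.0%, 20.1% and 55.9%. Among the 14, Fn1, Col5a2 and Thbs1 each had a probe set that passed in the transgenic pool only, which fixes its sign above 0. Of the 65 probe sets past the filter, 49 lay above 0 and 15 below, with a median of 0.11, while 52.5% of all 19994 probe sets past the filter that name a gene lay above 0. The 65 include the 40 already counted above by gene, and the genes were chosen with earlier results of these data known.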

How the data were processed

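RNA from 1 transgenic and 1 wild-type pool of 3 mice each (10 µg of total RNA into labelling, per the labels' protocols) was hybridised to 1 array a pool. The authors deposited linear intensity values; the submitters' processing notes name RMA but no version of it. That method subtracts background, forces equal distributions and summarises probes on a log2 scale, so a shift common to most genes would not show. Medians were 78.7 and 78.3, which needed no further scaling. No source used here gives the genome build or detection calls.

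Of 45101 probe sets, 34958 had 1 symbol in the platform annotation, 932 several and 9211 none, and only the first name a gene. Entrez identifiers of 34754 were found in RefSeq (GRCm38.p6), with 0 symbols updated. Log2 was taken after adding 1. Python 3.11.15, pandas 2.3.3 and numpy 2.4.6 were used, and the computation was tested on simulated data. The number of arrays limits the precision.

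The members and lists were chosen with earlier results of these data known. Genes named are all members, Il9, and from each other list those past 1.5-fold (at most 6) or the 2 with the largest difference; other genes were chosen after their values were seen. Alternatives were the mean over probe sets, no probe sets ending in _s_at, _x_at or _a_at, no filter, other filters, a pseudocount of 16, quantile normalization and 1.5-fold.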

Additional observations from a re-analysis of the deposited data

How the results depend on the processing

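No paired analysis was possible because each group is 1 array with no replicate number. The count of matrix genes 2-fold higher was 1 under 7 alternatives (mean over probe sets, no ambiguous probe sets, 3 other filters, a pseudocount of 16 and quantile normalization) and 2 at 1.5-fold, and 0 were lower throughout. Over all genes, 2-fold counts of 72 higher and 24 lower became 199 and 172 at 1.5-fold, and 15 were lower under the stricter filter at the 75th percentile. The matrix median stayed between 0.07 and 0.09, the fibrillar median between 0.19 and 0.27, and the gap of the fibrillar to the basement membrane median between 0.11 and 0.20. Of 8 matrix genes that changed sign under some alternative (Col1a1, Hspg2, Lox, Loxl1, Nid1, Sparc, Thbs2 and Vcan), none had passed 1.5-fold. Medians of collagen synthesis genes (up to 0.08), other basement membrane genes (down to -0.04), adhesive glycoproteins (down to -0.01), and markers of fibroblasts (up to 0.10) and pericytes (up to 0.06) changed sign. Over their alternatives the marker medians ranged from -0.06 to 1.23 for liver, -0.54 to -0.13 for mesothelium, 0.82 to 2.83 for mast cells, -1.19 to -0.07 for enteric glia and neurons and -0.28 to 0.06 for pericytes. These lists have few genes past the filter, down to 1 under the stricter filter. No detection calls were used, so signal over background is unknown here.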
